A study of Mus musculus with 35 samples.

Results

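The SLC25 family is the set of genes that encode the mitochondrial carriers. Its members were taken as the protein-coding genes of the count table whose mouse symbol is Slc25a followed by a number, and they numbered 47 among 55421 rows. They were measured in interscapular brown adipose tissue (iBAT) of 35 male C57BL/6J mice aged 9 to 10 weeks. Controls were 5 mice kept at room temperature (24 °C), and 5 mice each were held at 6 °C for 6 hours or for 1, 2, 3, 4 or 5 days. Cold-exposed mice lived singly without nesting material, so housing and temperature cannot be told apart. No genotype or drug differed between groups, every mouse ate standard chow, and each library came from 1 iBAT pad of 1 mouse. The library kit (QuantSeq) reads the 3′ end of polyadenylated RNA, so a count does not scale with transcript length, and levels of different carriers are not compared here.

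Carriers of this family are small proteins of the inner mitochondrial membrane, with a few exceptions in the outer membrane or in peroxisomes. They exchange nucleotides, phosphate, organic acids, amino acids, fatty acylcarnitines and cofactors between cytosol and matrix. Brown adipocytes burn fatty acids in mitochondria to make heat, and their uncoupling protein Ucp1 belongs to the same protein family under another symbol.

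Libraries held 3846016 to 6047247 counts (median 4902083), of which transcripts of the mitochondrial genome took 33.6 to 46.2% and the nuclear gene Gm42418 7.81 to 16.3%. A single read was therefore worth 0.165 to 0.26 CPM (counts scaled to a common library total). Levels are given as CPM scaled with TMM factors (trimmed mean of M values, which align the bulk of genes between libraries). Of the 9 brown adipocyte markers none was at 0 in all mice of a group, and their summed level was 12290 to 15980 CPM in controls and 13350 to 25880 CPM in the cold. Single markers of these 9 went both ways. At 6 hours and 2 days 3 were called higher and 1 lower, and at 1 and 3 days 3 and 2. At 4 days 3 were called higher and 3 lower, and at 5 days 4 and 2. Over all genes 16.4 to 21.6% were called higher and 14.7 to 21% lower, depending on the duration. Ucp1 itself rose at every duration, with log2 fold changes of 1.54 at 3 days to 2.03 at 1 day (edgeR adjusted p = 1.1e-05 and 3.88e-07). Summed levels of other cell types also differed between mice. The 10 skeletal muscle markers ran from 2.31 to 1301 CPM and exceeded 600 CPM in 5 libraries (room temperature replicates 1 and 3, 6 hours replicate 2, 1 day replicate 5 and 4 days replicate 5). The 7 erythroid markers ran from 1822 to 2337 CPM in controls and from 2693 to 4978 CPM at 5 days, and 3 of the 5 tested were called higher then. The 5 endothelial markers ran from 239 to 298 CPM in controls and 483 to 573 CPM at 1 day, with 4 of 5 called higher. The 8 macrophage markers ran from 81.7 to 194 CPM in controls and 146 to 319 CPM at 3 days, with 4 of 8 called higher. The 5 stromal progenitor markers ran from 498 to 729 CPM in controls and from 337 to 442 CPM at 1 day, with 4 of 5 called lower. The 5 markers of proliferating cells ran from 5.66 to 8.35 CPM in controls and 21.5 to 44.5 CPM at 3 days, with 3 of 3 tested called higher. The part of these shifts in the results was not tested, and in bulk tissue fewer cells of a type and less RNA per cell cannot be told apart.

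Each duration was compared with room temperature to find the carriers that cold exposure moved. Genes were tested with edgeR's quasi-likelihood test on the counts of the 10 mice concerned, and a gene was called when its p, adjusted by Benjamini-Hochberg over all genes tested, was below 0.05. Log2 fold changes are cold minus room temperature. The same 5 control mice enter all 6 of these comparisons, which therefore share their error. Of the 47 members, 35 had enough counts in all comparisons, Slc25a14 and Slc25a53 in some, and 10 in none (Slc25a2, Slc25a13, Slc25a18, Slc25a21, Slc25a29, Slc25a31, Slc25a41, Slc25a43, Slc25a47 and Slc25a54, with at most 15 counts in any library and Slc25a54 at 0 in all 35).

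Carriers that rose outnumbered those that fell at every duration, with the majority reversed at 6 hours when libraries were scaled by total counts alone (7 higher and 13 lower). After 6 hours, 20 of the 36 members tested were called (55.6%, against 42.6% of all 10593 genes), 12 higher (21.6% of all genes) and 8 lower (21%). After 1 day, 14 of 36 were called (38.9%, against 36.7%), 12 higher (18.9% of all genes) and 2 lower (17.8%). After 2 days, 16 of 36 were called (44.4%, against 31.2%), 12 higher (16.4%) and 4 lower (14.7%). The share of members called at 1 day was thus near that of all genes, and at 6 hours and 2 days it lay above.

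At 3 days, 20 of 36 members passed the test (55.6%, against 33.8% of all genes), 14 higher (18.3%) and 6 lower (15.5%). At 4 days, 21 of 36 passed (58.3%, against 38.0%), 16 higher (20%) and 5 lower (18%). At 5 days, 20 of 36 passed (55.6%, against 38.8%), 15 higher (20.2%) and 5 lower (18.6%). Median log2 fold changes over the members tested were 0.117, 0.198, 0.173, 0.164, 0.304 and 0.285 from 6 hours to 5 days, beside −0.026, −0.018, −0.017, −0.008, −0.008 and −0.017 over all genes. Scaling by total counts alone moved the all-gene medians to between −0.144 and −0.246 and the share of calls that were higher from 50.6–54.2% to 25.3–35.8%, and the members called then split into 9 and 7 at 1 day, 9 and 7 at 2 days, 11 and 7 at 3 days, 11 and 6 at 4 days and 11 and 8 at 5 days (higher and lower).

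Cold and control mice did not overlap in CPM for 13, 11, 9, 15, 14 and 15 of the 36 members from 6 hours to 5 days (background 28.5%, 25.0%, 20.2%, 22.0%, 25.1% and 24.6% of all genes). The summed level of the whole family was 2485 ± 228.5 CPM (SD, n = 5 mice) at room temperature and 3061 ± 68.3 CPM after 6 hours. It was 3387 ± 199.7 CPM after 1 day and 3649 ± 256 CPM after 5 days. The lowest mouse of each cold group stood above the highest control (2834 CPM) except after 2 days, when the group spanned 2807 to 3664 CPM. As a share of all counts, without TMM factors, only the 4-day mice all lay above the controls (0.336 to 0.378%, against 0.258 to 0.317%), and the 6-hour mice held 0.271 to 0.308%. This sum is carried by the members with the most counts and was not tested. In 1 test over all 7 groups and 35 mice, 26 of 37 members tested differed (70.3%, against 60.4% of all genes, edgeR adjusted p below 0.05), and 10 of these 26 had their highest mean at 5 days.

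**Figure D1:**
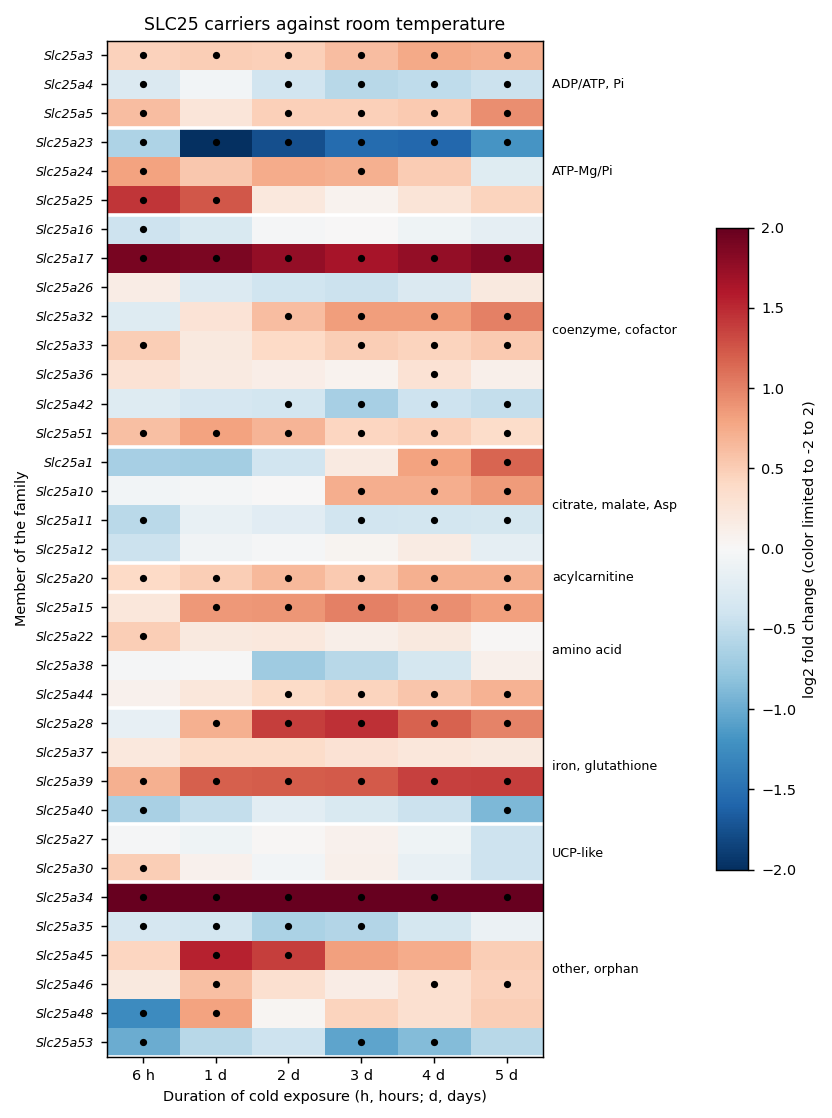
Log2 fold change of 35 of the 36 carriers tested at each cold duration (columns) against the 5 room temperature mice, in rows grouped by role, with color limited to −2 to 2 and a dot where the adjusted p was below 0.05. Slc25a34 and Slc25a17 were higher and Slc25a23 lower at all 6 durations, while Slc25a25 was higher at 6 hours and 1 day, and under scaling by total counts alone 13 of the 20 members called at 6 hours were lower.

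Slc25a34 (ENSMUSG00000040740, chr4:141618824-141623821, genome build GRCm38), an orphan carrier whose substrate is not settled, had the largest fold changes of the family. In the 5 control mice Slc25a34 measured 12.9, 14.2, 7.83, 5.59 and 2.18 CPM, and after 6 hours 46.9, 31.9, 44.9, 46 and 31.7 CPM. After 1 day Slc25a34 measured 97, 78, 71.4, 78.8 and 73 CPM and after 2 days 62.1, 83.9, 102, 77.7 and 72.6 CPM. Later Slc25a34 values were 43.6, 53.6, 43.6, 62.8 and 78.6 CPM at 3 days, 35.6, 45.6, 51.3, 71.1 and 62 CPM at 4 days and 64, 94.6, 67.5, 61.7 and 66.7 CPM at 5 days. Every cold mouse lay above every control, and the 1- and 2-day mice were the highest as groups. The mean rose from 8.54 ± 5.02 to 79.6 ± 10.2 CPM at 1 day. Its log2 fold change was 2.23 (standard error 0.29, adjusted p = 7.29e-06) at 6 hours, 3.23 (standard error 0.29, adjusted p = 3.42e-07) at 1 day and 3.06 (standard error 0.28, adjusted p = 1.96e-07) at 5 days in edgeR's quasi-likelihood test.

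The start of Slc25a34 is shown because this member changed most and its upstream window was the only one of the family to hold the nuclear receptor half-site AAGGTCA. Motifs were searched on both strands in the 250 bases before each start that RefSeq lists (build GRCm38.p6), which gave 46 windows for 36 of the 47 members. AAGGTCA occurred in 4.08% of all 32851 windows. In Slc25a34 it lies on the opposite strand, read as TGACCTT 119 bases before the start, and is in capitals below. The window (chr4:141623835-141624084, minus strand) lies upstream of the annotated gene and overlaps no exon.
Slc25a34: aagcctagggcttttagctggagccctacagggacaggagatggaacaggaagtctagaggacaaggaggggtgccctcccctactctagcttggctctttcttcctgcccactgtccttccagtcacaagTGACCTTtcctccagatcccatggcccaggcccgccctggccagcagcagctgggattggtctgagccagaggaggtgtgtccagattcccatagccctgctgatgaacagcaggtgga

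Of the longer elements searched, the estrogen-related receptor element TCAAGGTCA (which contains AAGGTCA, 0.387% of all windows) and the NRF1 element, matched as its 10-letter palindrome (0.782%), were in no window of the family. The E-box CACGTG was in 8 of the 46 windows (6.02% of all windows), those of Slc25a1, Slc25a13, Slc25a14, Slc25a15, Slc25a31, Slc25a33 and Slc25a36. Windows of different starts can overlap, and the same E-box of Slc25a14 was counted in both of its windows with a match. These matches describe letters in a window and were not tested for a role.

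The other orphan or less studied carriers moved in both directions. Slc25a48 (ENSMUSG00000021509, chr13:56438355-56474239), reported to import choline, measured 26.2, 11.7, 18.3, 17.3 and 15.4 CPM in controls and 6.81, 6.23, 5.36, 11.1 and 8.15 CPM after 6 hours. After 1 day Slc25a48 measured 21.2, 42.2, 40.6, 34.5 and 16.1 CPM, after 2 days 13.6, 12.8, 16, 29.4 and 21.6 CPM and after 3 days 18.2, 44.4, 24.8, 13.5 and 19.3 CPM. Its values were 19, 13.9, 26.4, 23.2 and 27.4 CPM at 4 days and 22.8, 9.33, 33.8, 36.2 and 23.1 CPM at 5 days. The 6-hour mice all lay below the controls, and from 1 day on the groups overlapped with the controls. Slc25a48 fell at 6 hours, by −1.25 (standard error 0.22, adjusted p = 0.000208) on the log2 scale, and was higher at 1 day by 0.80 (standard error 0.25, adjusted p = 0.0188) in edgeR's test. The 1-day call was lost when scaled by total counts alone (adjusted p = 0.0598) and without 1-day replicate 2 or 3 (adjusted p = 0.0561 and 0.0563, edgeR).

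Slc25a45 (ENSMUSG00000024818, chr19:5877808-5885878) was a low-count member, with 5 to 46 counts per library. Slc25a45 measured 2.32, 0.971, 2.61, 2.14 and 3.27 CPM in controls, 3.93, 3.46, 2.46, 1.89 and 3.7 CPM after 6 hours and 7.06, 4.79, 5.55, 6.14 and 9.87 CPM after 1 day. It then measured 6.95, 7.42, 7.01, 3.15 and 4.9 CPM at 2 days, 5.6, 3.48, 3.92, 3.66 and 3.34 CPM at 3 days, 1.26, 4.99, 4.49, 3.81 and 4.32 CPM at 4 days and 4.72, 4.99, 1.96, 1.37 and 2.99 CPM at 5 days. The 1-day and the 3-day mice all exceeded the controls, and the 4- and 5-day groups each held mice within the control range. Slc25a45 rose at 1 day by 1.55 (standard error 0.30, adjusted p = 0.000657) and at 2 days by 1.38 (standard error 0.32, adjusted p = 0.00394) on the log2 scale, and its 3-day value of 0.82 did not pass (edgeR adjusted p = 0.0519, or 0.0365 without room temperature replicate 5).

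Of the 6 members of this group tested against room temperature, 1 was higher and 3 were lower at 6 hours, 4 higher and 1 lower at 1 day, and 2 higher and 0 lower at 5 days. Shares of all genes were 21.6% higher and 21% lower at 6 hours, 18.9% and 17.8% at 1 day and 20.2% and 18.6% at 5 days. Slc25a46, which sits in the outer membrane and acts in mitochondrial dynamics, rose from 42.2 ± 5.95 to 64 ± 4.48 CPM at 1 day (a log2 change of 0.60, edgeR adjusted p = 0.00045) and was 58.4 ± 4.61 CPM at 5 days (0.47, adjusted p = 0.00299), a call lost when scaled by total counts alone (0.116). Its 4-day call (0.32, adjusted p = 0.0448) was lost in 7 of 10 fits that left out 1 mouse (room temperature replicate 1, 3, 4 or 5, 4 days replicate 1, 2 or 4, edgeR adjusted p 0.0582 to 0.136) and with that scaling (0.295). The 2-day value of Slc25a46, not called, passed as higher in 1 fit of all mice (edgeR adjusted p = 0.018). It also passed without room temperature replicate 2 (0.0276) or 2 days replicate 1 or 4 (0.0313 and 0.0474). Slc25a35, an orphan carrier, fell from 65.6 ± 11.3 to 42.9 ± 12.1 CPM at 2 days (−0.63, edgeR adjusted p = 0.0136) and 43.4 ± 9.73 CPM at 3 days (−0.59, adjusted p = 0.00717). The 2-day call was lost without room temperature replicates 1 and 3, the libraries of high muscle signal in that comparison (edgeR adjusted p = 0.063). Its calls at 6 hours and 1 day (−0.33 and −0.37) were each lost in 8 of 10 such fits (without room temperature replicate 1, 3, 4 or 5, 6 hours replicate 2, 3, 4 or 5, or 1 day replicate 1, 2, 4 or 5, edgeR adjusted p 0.0543 to 0.109). At 4 days Slc25a35 was not called, but passed as lower when scaled by total counts alone (edgeR adjusted p = 0.00531), with a minimum count of 30 (0.0332) or with a replicate block (0.0352). It also passed then without room temperature replicate 2 (0.00945) or 4 days replicate 4 (0.0214). Slc25a53, at 2 to 31 counts per library, was called lower at 6 hours, 3 and 4 days (log2 fold changes −0.995, −1.06 and −0.87). These calls were lost without room temperature replicate 1 or 4, and without 6 hours replicate 1 or 3, 3 days replicate 1, 3 or 5, or 4 days replicate 2, 4 or 5 (edgeR adjusted p 0.0517 to 0.127).

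Among carriers of coenzymes, cofactors and nucleotides, 9 members were tested. Of these 3, 2, 3, 4, 5 and 4 were higher and 1, 0, 1, 1, 1 and 1 lower from 6 hours to 5 days. Over all genes 16.4 to 21.6% were higher and 14.7 to 21% lower, depending on the duration. Slc25a17 (ENSMUSG00000022404, chr15:81318911-81360812), a peroxisomal carrier of coenzyme A, FAD and NAD, measured 79.7, 50.5, 69, 43.6 and 44.6 CPM in controls and 212, 209.7, 226, 229 and 208 CPM after 6 hours. After 1 day Slc25a17 measured 178, 257, 213, 165 and 242 CPM, after 2 days 126, 197, 206, 190.3 and 254 CPM and after 3 days 164, 154, 163, 209.7 and 204 CPM. Its values were 189, 202, 174, 198 and 196 CPM at 4 days and 215, 205, 212, 188 and 215 CPM at 5 days. The lowest cold mouse (126 CPM, 2 days) stood above the highest control (79.7 CPM). The log2 fold change was already 1.90 (standard error 0.15, adjusted p = 1.98e-08) at 6 hours and was 1.85 (standard error 0.15, adjusted p = 3.97e-08) at 5 days in edgeR's test. It lay between 1.65 and 1.88 at the durations in between.

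Slc25a32 (ENSMUSG00000022299, chr15:39091231-39112716), a mitochondrial carrier of folate and FAD, rose later. Slc25a32 measured 25.9, 31.6, 31.8, 30.1 and 32.3 CPM in controls, 30.6, 16.9, 31.3, 27.8 and 22 CPM after 6 hours and 32.1, 45, 37.9, 37.1 and 31.4 CPM after 1 day. At 2 days its values were 39.4, 35.7, 47.1, 61.2 and 52.2 CPM, at 3 days 49.9, 79.2, 51.6, 35.4 and 51.6 CPM, at 4 days 68.6, 50.8, 41.6, 50.9 and 55.7 CPM and at 5 days 75, 51.2, 44.2, 72.6 and 64.5 CPM. From 2 days on all cold mice were above the controls, while the 6-hour and 1-day groups overlapped with them. The log2 fold change was −0.26 at 6 hours (edgeR adjusted p = 0.162, not called, but 0.017 when scaled by total counts alone), 0.62 (standard error 0.14, adjusted p = 0.00365) at 2 days and 1.01 (standard error 0.14, adjusted p = 2.21e-05) at 5 days. The last bases of Slc25a32 transcripts match a stretch of Itch at 95% identity or more, so reads there could have been split between them.

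Slc25a51, which imports NAD into mitochondria, rose at all durations, from 377 ± 52.6 CPM in controls to 661 ± 72.9 CPM at 1 day (a log2 change of 0.81, edgeR adjusted p = 4.37e-05) and 488 ± 69.9 CPM at 5 days (0.37, adjusted p = 0.0198). Its 5-day call was lost without room temperature replicate 4 (adjusted p = 0.062) or with scaling by total counts alone (0.378, edgeR). Slc25a33, a pyrimidine nucleotide carrier, was called higher at 6 hours and at 3, 4 and 5 days, with log2 fold changes of 0.50, 0.49, 0.45 and 0.52. Its 3-day and 4-day calls were each lost in 4 of 10 fits that left out 1 mouse (room temperature replicate 4 or 5 at both, replicate 3 at 4 days, 3 days replicate 4 or 5 and 4 days replicate 2, edgeR adjusted p 0.051 to 0.0799). With scaling by total counts alone all 4 calls of Slc25a33 were lost (adjusted p = 0.0872, 0.0741, 0.148 and 0.106, edgeR). Slc25a42, a coenzyme A carrier, fell from 75.1 ± 12.5 CPM to 47 ± 5.24 CPM at 3 days (−0.67, edgeR adjusted p = 0.00061) and was also lower at 4 and 5 days (−0.41 and −0.47). The 4- and 5-day calls were lost in 1 fit of all 35 mice (adjusted p = 0.0819 and 0.0547, edgeR), and Slc25a42 was not called over the 7 groups (0.0779). Both fits include 1 day replicate 4, where Slc25a42 measured 15.1 CPM against 67.1 to 79.3 CPM in the rest of that group. The part of this mouse in the lost calls was not tested. The 2-day call of Slc25a42 (−0.36, adjusted p = 0.0432) was lost in 7 of 10 fits that left out 1 mouse (room temperature replicate 1, 2 or 4 or 2 days replicate 1, 2, 3 or 4, edgeR adjusted p 0.0522 to 0.11) and in the fit of all mice (0.172). Slc25a16 fell at 6 hours (−0.41, edgeR adjusted p = 0.00878). The call was lost without room temperature replicates 1 and 3 and 6 hours replicate 2, which had high muscle signal (0.0728, edgeR). Slc25a36, another pyrimidine nucleotide carrier, was called higher at 4 days (0.29, edgeR adjusted p = 0.0326), a call lost in 7 of 10 fits that left out 1 mouse (room temperature replicate 1, 2, 4 or 5 or 4 days replicate 1, 2 or 3, 0.0663 to 0.101) and with scaling by total counts alone (0.358). The S-adenosylmethionine carrier Slc25a26 was not called against room temperature, with log2 fold changes of −0.42 to 0.20, but was lower at 1, 2 and 3 days when scaled by total counts alone (edgeR adjusted p = 0.0213, 0.0112 and 0.0315) or without room temperature replicate 1 (0.0474, 0.0233 and 0.021).

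The 2 carriers of iron, mitoferrin-1 (Slc25a37) and mitoferrin-2 (Slc25a28), are paralogs that bring iron into the matrix for heme and iron-sulfur clusters. Slc25a28 (ENSMUSG00000040414, chr19:43663801-43674881) measured 25.5, 17.7, 18.3, 19.7 and 20.7 CPM in controls, 18.6, 18.9, 19.2, 20.3 and 15 CPM after 6 hours and 24, 40.9, 31.5, 24.6 and 46.4 CPM after 1 day. At 2 days Slc25a28 measured 52.2, 59.4, 53.2, 44.6 and 58.5 CPM and at 3 days 52.3, 46.9, 66.9, 63.2 and 49.6 CPM. At 4 and 5 days its values were 47, 48.2, 39.7, 50.1 and 43.2 CPM and 41.7, 39, 34.6, 46 and 42.2 CPM. The 6-hour mice lay within or below the control range, the 1-day mice overlapped it, and all mice from 2 days on were above it. Its log2 fold change was 0.71 (standard error 0.18, adjusted p = 0.00511) at 1 day, 1.46 (standard error 0.14, adjusted p = 7.63e-07) at 3 days and 0.99 (standard error 0.13, adjusted p = 8.34e-06) at 5 days in edgeR's test. Slc25a37, which erythroid cells express strongly, was not called at any duration, though its 1-day value passed without room temperature replicate 1 or 1 day replicate 1 (edgeR adjusted p = 0.0287 and 0.0319). Its log2 fold changes were 0.20 to 0.37 (lowest edgeR adjusted p = 0.0611), with 13.2 ± 2.21 CPM in controls and 16.7 ± 9.79 CPM at 2 days. In that group replicate 1 measured 33.2 CPM and the others 7.09 to 15.1 CPM. Of the 5 erythroid markers tested, 3, 4, 0, 1, 2 and 3 were called higher from 6 hours to 5 days.

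Slc25a39 (ENSMUSG00000018677, chr11:102402985-102407946), needed for glutathione import into mitochondria, rose at all durations. Slc25a39 measured 215, 171, 215, 195 and 162 CPM in controls, 314, 316, 342, 336 and 286 CPM after 6 hours and 417, 447, 430.2, 453 and 437 CPM after 1 day. Its values were 378, 414, 531, 446 and 468 CPM at 2 days, 385, 490.0, 462, 415 and 471 CPM at 3 days, 464, 465, 449, 555 and 512 CPM at 4 days and 536, 446, 508, 509 and 492 CPM at 5 days. All 30 cold mice exceeded the 5 controls, and the 5 mice of the 1-day group differed little among themselves. The log2 fold change grew from 0.72 (standard error 0.10, adjusted p = 1.87e-05) at 6 hours to 1.38 (standard error 0.10, adjusted p = 2.42e-08) at 5 days in edgeR's test. Its paralog Slc25a40, at 10 to 58 counts per library, was called lower at 6 hours and 5 days only. It measured 7.97 ± 2.32 CPM in controls and 4.29 ± 1.65 CPM at 5 days (−0.90, edgeR adjusted p = 0.0163). Over the 7 groups Slc25a40 was not called (edgeR adjusted p = 0.174). Its 6-hour call (−0.65, adjusted p = 0.0438) was lost in 7 of 10 fits that left out 1 mouse (room temperature replicate 2, 4 or 5 or 6 hours replicate 1, 2, 3 or 4, edgeR adjusted p 0.0581 to 0.122).

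**Figure D2:**
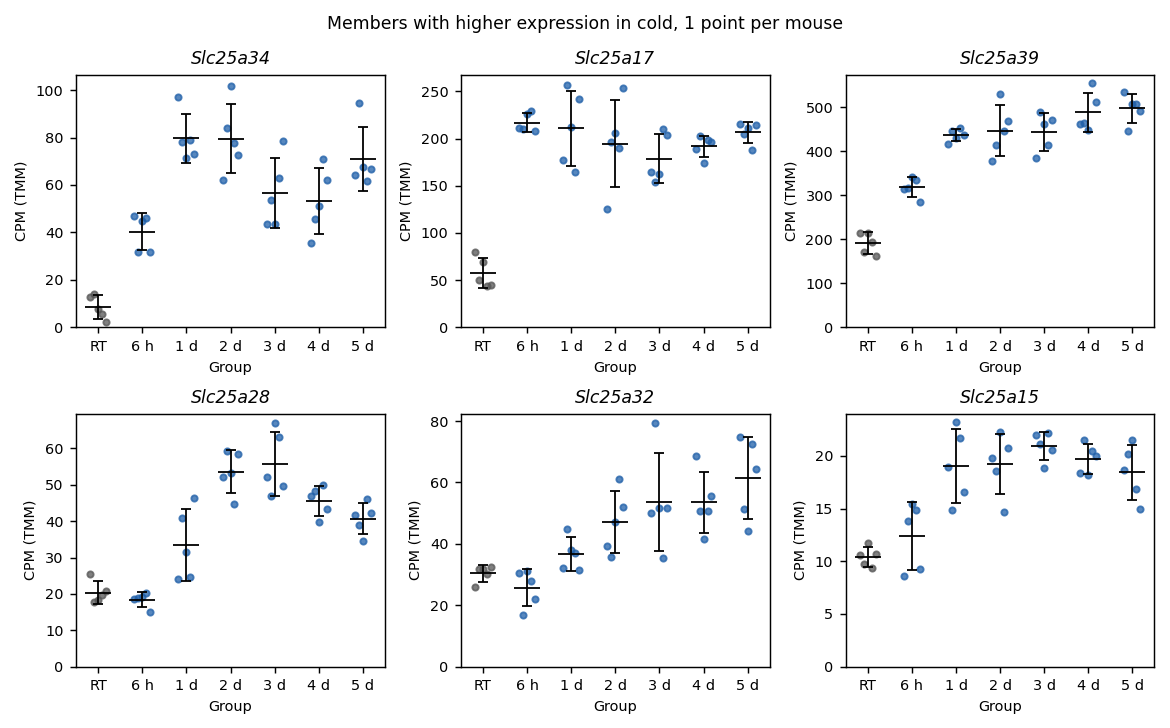
CPM per mouse (points), group mean and SD (bars) of 6 carriers with higher levels in the cold, at room temperature (RT) and after each duration. Slc25a17, Slc25a34 and Slc25a39 were above all controls by 6 hours, whereas Slc25a28 and Slc25a32 were above all controls from 2 days on and Slc25a15 from 1 day on.

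Calcium-regulated ATP-Mg/phosphate carriers load or empty the matrix pool of adenine nucleotides when calcium rises. The 3 members tested went different ways: 2 were higher and 1 lower at 6 hours (21.6% and 21% of all genes), and 0 higher and 1 lower at 5 days (20.2% and 18.6%). Slc25a23 (ENSMUSG00000046329, chr17:57043711-57059863) measured 40.5, 44.1, 51.6, 49.3 and 53.3 CPM in controls, 34.8, 27.7, 32, 37.9 and 26.1 CPM after 6 hours and 16, 10.04, 16.6, 9.72 and 6.89 CPM after 1 day. At 2 days Slc25a23 measured 10.1, 9.04, 11.7, 23.6 and 17.9 CPM and at 3 days 13.8, 23.6, 12.1, 14.4 and 18 CPM. At 4 and 5 days its values were 15.2, 13.4, 14.2, 20.4 and 17.1 CPM and 15.5, 27.6, 22.4, 23.9 and 16.7 CPM. Every cold mouse was below every control, and the 1-day group was the lowest. On the log2 scale Slc25a23 changed by −0.62 (standard error 0.12, adjusted p = 0.00065) at 6 hours, −1.99 (standard error 0.19, adjusted p = 7.92e-07) at 1 day and −1.18 (standard error 0.15, adjusted p = 8.05e-06) at 5 days in edgeR's test. An annotated transcript on the opposite strand, Gm17168, overlaps it and had 0 counts.

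Slc25a25 (ENSMUSG00000026819, chr2:32414487-32451445) had 6 to 54 counts per library and was high early. Slc25a25 measured 3.28, 3.3, 1.52, 3.62 and 1.45 CPM in controls, 7.33, 7.39, 6.26, 9.43 and 6.11 CPM after 6 hours and 10.03, 4.79, 4.12, 6.65 and 5.97 CPM after 1 day. Its values were 4.08, 2.32, 3.95, 1.57 and 3.17 CPM at 2 days, 3.03, 1.23, 3.38, 3.27 and 2.83 CPM at 3 days, 1.26, 3.44, 4.84, 3.4 and 2.88 CPM at 4 days and 3.22, 5.64, 4.14, 2.74 and 2.59 CPM at 5 days. All mice of the 6-hour and 1-day groups were above the controls, and from 2 days on the groups overlapped. The log2 fold change was 1.42 (standard error 0.27, adjusted p = 0.000438) at 6 hours and 1.24 (standard error 0.32, adjusted p = 0.00563) at 1 day, and 0.06 to 0.45 without a call later (edgeR). Exons of Naif1 on the other strand overlap this gene, and the strand setting of the counting is not given in the sources used here.

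RefSeq lists several starts for Slc25a25. The window before the third, shown because the gene rose early in the cold and this window holds the cAMP response element TGACGTCA, lies within an intron of longer transcripts (chr2:32424067-32424316, minus strand, build GRCm38.p6). A short run of genomic bases downstream of this start matched no GENCODE M21 transcript of the gene, unlike that of Slc25a34. A first exon that ends before or within that run would also fail to match. Whether GENCODE M21 holds this start was therefore not settled. The element, in capitals, begins 150 bases before that start. It was in 2 of the 46 windows of the family, those of Slc25a25 and Slc25a36, and in 1.55% of all windows.
Slc25a25: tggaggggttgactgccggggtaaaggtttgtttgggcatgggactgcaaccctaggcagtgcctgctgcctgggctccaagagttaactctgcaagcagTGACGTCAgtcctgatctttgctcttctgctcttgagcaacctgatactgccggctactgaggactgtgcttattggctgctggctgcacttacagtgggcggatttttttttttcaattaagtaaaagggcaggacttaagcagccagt

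Slc25a24 (ENSMUSG00000040322, chr3:109123149-109168457), at 11 to 64 counts per library, measured 7.14, 4.85, 3.48, 3.62 and 5.99 CPM in controls, 9.69, 8.77, 6.26, 8.25 and 11.5 CPM after 6 hours and 8.17, 10.9, 6.8, 5.11 and 5.51 CPM after 1 day. Its values were 9.66, 11.8, 6.65, 4.2 and 9.8 CPM at 2 days, 9.34, 7.99, 9.26, 8.09 and 6.17 CPM at 3 days, 8.67, 8.27, 7.6, 5.61 and 5.22 CPM at 4 days and 4.94, 5.86, 2.4, 4.5 and 3.58 CPM at 5 days. Each cold group overlapped the controls. Slc25a24 was called higher at 6 hours, by 0.81 (standard error 0.23, adjusted p = 0.00975), and at 3 days, by 0.71 (standard error 0.23, adjusted p = 0.0229), in edgeR's test. The 3-day call was lost without room temperature replicate 3 or 4 or 3 days replicate 1 or 3 (adjusted p 0.0505 to 0.0674) and when scaled by total counts alone (0.0805). The 2-day value, not called, passed as higher with a replicate block (edgeR adjusted p = 0.0374) and in 1 fit of all mice (0.0212). It also passed without room temperature replicate 1 (0.0354) or 2 days replicate 4 (0.0131).

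Carriers of citrate, dicarboxylates and the malate-aspartate exchange link the matrix with lipid synthesis and redox balance in the cytosol. Of the 4 tested, 0 were higher at 6 hours, 1 day and 2 days, 1 at 3 days and 2 at 4 and 5 days (16.4 to 21.6% of all genes, depending on the duration). Slc25a1 (ENSMUSG00000003528, chr16:17925223-17928219), the citrate carrier, measured 204, 48.1, 175, 125 and 84.4 CPM in controls, 82.2, 54, 91.9, 95.9 and 84.3 CPM after 6 hours and 63.2, 101, 121, 54.7 and 55.8 CPM after 1 day. At 2 days Slc25a1 measured 59.6, 80.9, 86.3, 151 and 114 CPM and at 3 days 117, 220.5, 142, 101 and 138 CPM. At 4 and 5 days its values were 280.0, 131, 172, 242 and 277 CPM and 235, 212, 286, 454 and 248 CPM. Controls varied widely, and all 5 mice exceeded them only at 5 days. The log2 fold change was −0.66 (standard error 0.27, adjusted p = 0.0579) at 6 hours, 0.81 (standard error 0.29, adjusted p = 0.0394) at 4 days and 1.17 (standard error 0.28, adjusted p = 0.00318) at 5 days in edgeR's test. The 4-day call was lost without room temperature replicate 2, 4 or 5 or 4 days replicate 1, 4 or 5 (edgeR adjusted p 0.0705 to 0.101) in DESeq2's Wald test (0.132) and when scaled by total counts alone (0.0781). The 6-hour value passed without room temperature replicate 2 or 5 (edgeR adjusted p = 0.00219 and 0.0314), when scaled by total counts alone (0.0122), with a minimum count of 30 (0.0453) or with a replicate block (0.0294).

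Enzymes around citrate and fatty acid synthesis were lower or not called at 6 hours and, but for citrate synthase, higher at 5 days. Acly, which cleaves citrate to acetyl-CoA, had a log2 change of −1.69 (standard error 0.34, adjusted p = 0.000625) at 6 hours and was higher by 2.11 (standard error 0.37, adjusted p = 0.000209) at 5 days in edgeR's test. Acaca and Fasn, the next steps of fatty acid synthesis, were at −1.04 and −1.34 at 6 hours (edgeR adjusted p = 0.00553 and 0.00587) and 0.73 and 1.35 at 5 days (adjusted p = 0.0375 and 0.00406). Malic enzyme (Me1) was higher by 1.86 at 5 days (edgeR adjusted p = 5.2e-07). Citrate synthase (Cs), which makes citrate in the matrix, was not called at any duration, with log2 fold changes of −0.22 to 0.06. Of these 5 genes, 3 were lower and 0 higher at 6 hours (21% and 21.6% of all genes), and 4 higher and 0 lower at 5 days (20.2% and 18.6%).

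Slc25a10, the dicarboxylate carrier, stood at 9.14 ± 4.02 CPM in controls, 9.26 ± 3.16 CPM at 2 days and 16.5 ± 5.03 CPM at 5 days. It was called higher at 3, 4 and 5 days, by 0.72, 0.73 and 0.85 (edgeR adjusted p = 0.0311, 0.0234 and 0.0143). These calls were lost without room temperature replicate 1, 2 or 5 at 3 and 4 days, 3 days replicate 3, 4 or 5, 4 days replicate 2 or 4, and 5 days replicate 2 (adjusted p 0.0509 to 0.0741), and all 3 when scaled by total counts alone (0.071, 0.0661 and 0.0563). Slc25a11, which exchanges oxoglutarate for malate, fell from 99.8 ± 7.89 to 69.4 ± 6.04 CPM at 6 hours (−0.54, edgeR adjusted p = 0.000205). It was lower by −0.38, −0.36 and −0.36 at 3, 4 and 5 days, and all mice of these groups and at 6 hours were below the controls. At 1 and 2 days Slc25a11 overlapped the controls and was not called, but passed when scaled by total counts alone (edgeR adjusted p = 0.0116 and 0.0076). The 5-day call was lost without the libraries of high muscle signal (adjusted p = 0.0524). The aspartate/glutamate carrier Slc25a12 was not called (log2 fold changes −0.43 to 0.16, 3 to 30 counts per library). Of 6 enzymes of the malate-aspartate and glycerol phosphate shuttles, 3, 4, 3, 3, 5 and 6 were higher from 6 hours to 5 days and 0 lower (16.4 to 21.6% and 14.7 to 21% of all genes). Got1, the cytosolic aspartate aminotransferase, was higher by 3.11 (standard error 0.17, adjusted p = 4.94e-10) at 6 hours and 2.90 (standard error 0.16, adjusted p = 5.26e-10) at 5 days, and Gpd1 by 1.35 (standard error 0.16, adjusted p = 4.88e-06) at 5 days in edgeR's test.

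**Figure D3:**
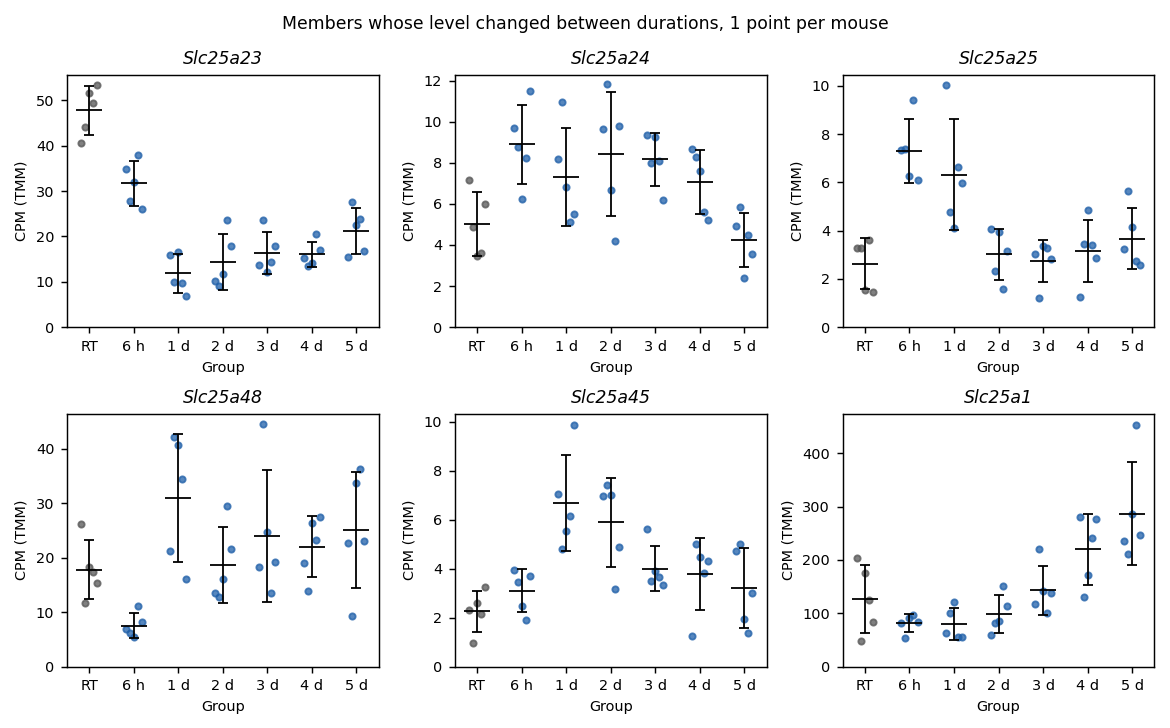
CPM per mouse (points), group mean and SD (bars) of 6 carriers whose levels changed between durations, at room temperature (RT) and after each duration. Slc25a23 was below all controls throughout, Slc25a25 was above them at 6 hours and 1 day, Slc25a48 was below them at 6 hours, and Slc25a1 exceeded them only at 5 days.

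ADP/ATP and phosphate carriers supply ATP synthase. Of the 3 tested, 2 were higher and 1 lower at 6 hours and from 2 to 5 days, and 1 was higher and 0 lower at 1 day. Shares of all genes were 16.4 to 21.6% higher and 14.7 to 21% lower, depending on the duration. Slc25a3 (ENSMUSG00000061904, chr10:91116574-91124059), the phosphate carrier, measured 220.3, 161, 212, 157 and 139.7 CPM in controls, 222, 273, 259.5, 254 and 226 CPM after 6 hours and 235, 282, 254, 224 and 258 CPM after 1 day. At 2 days Slc25a3 measured 216, 243, 229.7, 279 and 272 CPM, at 3 days 288, 284, 252, 261 and 266 CPM, at 4 days 299, 288, 273, 308 and 316 CPM and at 5 days 296, 244, 316, 325 and 299.7 CPM. Cold mice were above all controls except for 1 mouse at 2 days, and the lowest mice at 6 hours and 1 day came close to the highest control. The log2 fold change was 0.45 (standard error 0.12, adjusted p = 0.00621) at 6 hours and 0.73 (standard error 0.13, adjusted p = 0.000181) at 5 days in edgeR's test. Calls at 6 hours, 1 day and 2 days were lost when scaled by total counts alone (adjusted p = 0.0726, 0.0775 and 0.135).

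The 2 ADP/ATP carriers went in opposite directions. Slc25a4 (ENSMUSG00000031633, chr8:46206797-46211284), the form that heart and skeletal muscle use most, measured 332, 323, 286, 298 and 336 CPM in controls, 259, 228, 265, 221 and 330.0 CPM after 6 hours and 308, 284, 324, 313 and 282 CPM after 1 day. Its values were 179, 206, 237, 290.1 and 304 CPM at 2 days, 211, 215, 182, 232 and 224 CPM at 3 days, 186, 201, 195, 266 and 250.4 CPM at 4 days and 172, 264, 272, 259 and 202 CPM at 5 days. All mice at 3, 4 and 5 days were below the lowest control, and the other groups overlapped with controls. Slc25a4 fell by −0.56 (standard error 0.10, adjusted p = 0.000303) at 3 days, −0.51 (standard error 0.11, adjusted p = 0.00185) at 4 days and −0.44 (standard error 0.12, adjusted p = 0.00908) at 5 days on the log2 scale in edgeR's test. Its calls at 6 hours (−0.29, adjusted p = 0.036) and 2 days (−0.39, adjusted p = 0.0432) were lost without room temperature replicate 1, 2 or 5, replicate 4 at 2 days, 6 hours replicate 1, 2, 3 or 4, or 2 days replicate 1, 2 or 3 (edgeR adjusted p 0.0546 to 0.118). They were also lost without the libraries of high muscle signal in the groups compared (0.126 and 0.0791, edgeR), whereas those at 3, 4 and 5 days were kept. The summed muscle markers ran from 89.9 to 1136 CPM in controls and 183 to 304 CPM at 5 days, when 6 of 10 were called lower. At 3 and 4 days, when Slc25a4 fell more, 1 and 0 of 10 were called lower, and at 6 hours and 2 days 0 and 1. The part of muscle in the Slc25a4 values was not tested.

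Slc25a5 (ENSMUSG00000016319, chrX:36795651-36798807), the other ADP/ATP carrier of most tissues, measured 86.1, 75.9, 89.2, 68.7 and 67.9 CPM in controls, 112, 118, 129.6, 114 and 128 CPM after 6 hours and 84.7, 126, 92.9, 62.1 and 92 CPM after 1 day. At 2 days Slc25a5 measured 71, 96.7, 127, 122 and 130.2 CPM and at 3 days 88.7, 114, 85.8, 131 and 118 CPM. At 4 and 5 days its values were 125, 95.9, 99.2, 106 and 126 CPM and 109, 126, 151, 182 and 169 CPM. The mice at 6 hours, 4 days and 5 days all exceeded the controls. Slc25a5 rose by 0.62 (standard error 0.10, adjusted p = 9.26e-05) at 6 hours and 0.92 (standard error 0.13, adjusted p = 3.19e-05) at 5 days in edgeR's test, and was not called at 1 day (0.24, adjusted p = 0.226). Its 2-day call (0.48) was lost without room temperature replicate 4 or 5 or 2 days replicate 3 or 5 (edgeR adjusted p 0.0606 to 0.0662) and when scaled by total counts alone (0.149), and its 1-day value passed without 1 day replicate 4 (0.0413). The 3 gene copies that share its 3′ end held 5.51 counts together on average, beside 530.9 for Slc25a5.

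Slc25a20 (ENSMUSG00000032602, chr9:108662088-108684641), the carnitine/acylcarnitine carrier through which long-chain fatty acids enter the matrix, measured 317, 234, 304, 252 and 225 CPM in controls, 323, 388, 374, 359.6 and 334 CPM after 6 hours and 402, 421, 429, 272 and 344 CPM after 1 day. At 2 days Slc25a20 measured 305, 377, 454, 453 and 508 CPM and at 3 days 368, 387, 340.4, 387 and 429.6 CPM. At 4 and 5 days its values were 424, 404, 389, 441 and 495 CPM and 394, 390.5, 488, 516 and 405 CPM. All mice were above the controls at 6 hours and from 3 days on, and 1 mouse each at 1 and 2 days lay within the control range. Slc25a20 rose by 0.40 (standard error 0.11, adjusted p = 0.00632) at 6 hours and 0.72 (standard error 0.12, adjusted p = 0.000131) at 5 days in edgeR's test. With scaling by total counts alone its calls at 6 hours and 1 day were lost (adjusted p = 0.11 and 0.101). Of its 4 tested partners in the carnitine shuttle, 1 was higher and 1 lower at 6 hours (21.6% and 21% of all genes) and 3 higher and 0 lower at 5 days (20.2% and 18.6%). Cpt1a, on the outer membrane, was at −0.24 at 6 hours (edgeR adjusted p = 0.483) and rose by 1.46 (standard error 0.20, adjusted p = 2.84e-05) at 1 day. Cpt2, on the inner side, rose by 1.10 (standard error 0.11, adjusted p = 6.21e-07) at 5 days. Cpt1b had too few counts here to be tested. Its level in this tissue, and which of Cpt1a and Cpt1b limits this step, cannot be judged from these counts.

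**Figure D4:**
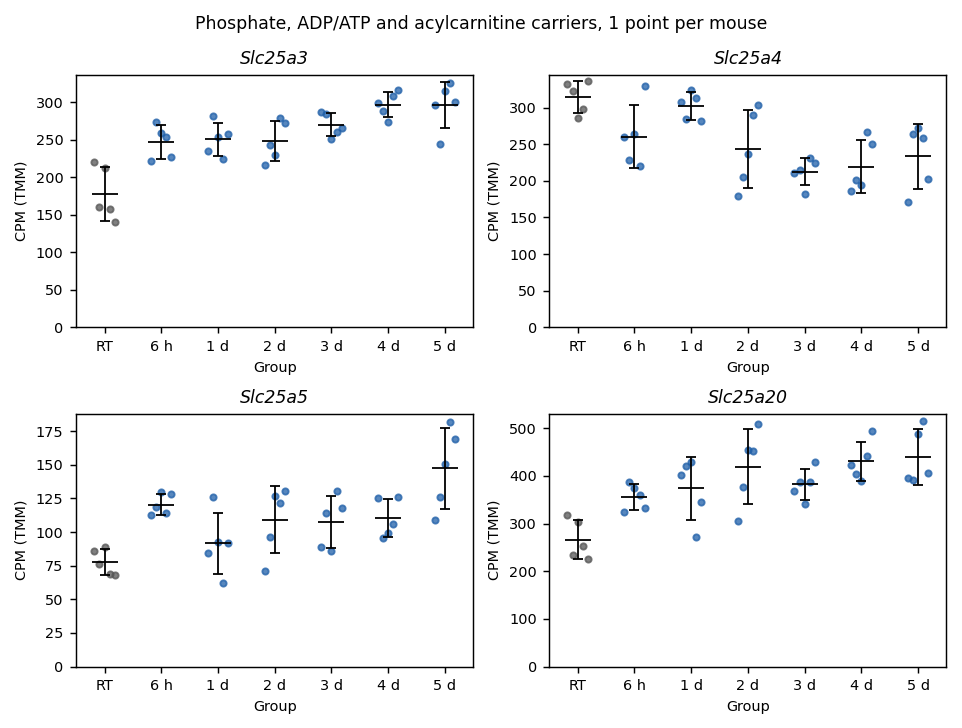
CPM per mouse (points), group mean and SD (bars) of the phosphate carrier Slc25a3, the ADP/ATP carriers Slc25a4 and Slc25a5 and the acylcarnitine carrier Slc25a20, at room temperature (RT) and after each duration. Slc25a4 was below all controls at 3, 4 and 5 days, while all mice of the other 3 genes were above the controls at 4 and 5 days.

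Amino acid carriers had 4 members with enough counts, of which 1, 1, 2, 2, 2 and 2 were higher from 6 hours to 5 days and 0 lower (16.4 to 21.6% and 14.7 to 21% of all genes). Slc25a15 (ENSMUSG00000031482, chr8:22375551-22398597), the ornithine carrier, measured 10.6, 9.71, 11.8, 9.37 and 10.7 CPM in controls, 8.64, 13.8, 15.4, 14.8 and 9.26 CPM after 6 hours and 18.9, 14.8, 23.3, 21.7 and 16.5 CPM after 1 day. At 2 days Slc25a15 measured 19.8, 18.6, 22.3, 14.7 and 20.8 CPM and at 3 days 21.9, 21.1, 18.9, 22.1 and 20.6 CPM. At 4 and 5 days its values were 18.4, 21.5, 18.1, 20.4 and 20 CPM and 18.7, 20.2, 21.6, 16.8 and 14.9 CPM. The 6-hour group spread to both sides of the controls, and all mice from 1 day on were above them. Slc25a15 rose by 0.87 (standard error 0.15, adjusted p = 0.000278) at 1 day and 1.01 (standard error 0.13, adjusted p = 1.51e-05) at 3 days in edgeR's test.

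Slc25a44, which imports branched-chain amino acids into mitochondria and is studied in brown fat for that reason, was higher at longer durations. Its mean was 75.5 ± 2.6 CPM in controls, 80.9 ± 3.48 CPM at 6 hours, 88.1 ± 6.98 CPM at 1 day, 102 ± 10.3 CPM at 3 days and 123 ± 3.6 CPM at 5 days. It was called from 2 days on, with log2 fold changes of 0.38 (standard error 0.10, adjusted p = 0.00917) at 2 days and 0.70 (standard error 0.09, adjusted p = 6.15e-06) at 5 days in edgeR's test, and the 1-day mice already lay above the controls without a call (0.22, adjusted p = 0.0722, or 0.0498 without 1 day replicate 5 and 0.0322 in DESeq2's Wald test). The 2-day call was lost when scaled by total counts alone (0.229, edgeR). Slc25a22, a glutamate carrier, was higher at 6 hours (57.6 ± 7.16 against 40.6 ± 7.01 CPM, a log2 change of 0.49, edgeR adjusted p = 0.0041) and not called later, and the 6-hour call was lost when scaled by total counts alone (0.0662). At 1 day 1 mouse of 13.6 CPM stood below the controls (34.6 to 51.9 CPM) and the other 4 measured 49.6 to 60.9 CPM, and without that mouse (replicate 4) Slc25a22 was called higher (0.43, edgeR adjusted p = 0.0159). The glycine carrier Slc25a38, at 7 to 36 counts per library, was not called, with log2 fold changes of −0.71 to 0.10, but its 2-day value passed when scaled by total counts alone (edgeR adjusted p = 0.016), without 2 days replicate 4 (0.0348) or in 1 fit of all mice (0.0496).

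The members most like uncoupling proteins were at low counts. Slc25a30 was higher at 6 hours, 13.3 ± 1.7 against 9.36 ± 0.84 CPM (0.49, edgeR adjusted p = 0.0138), a call lost without the libraries of high muscle signal (0.0831) and when scaled by total counts alone (0.132). Slc25a27 was not called (log2 fold changes −0.41 to 0.09), and Slc25a14 had 2 to 17 counts per library and passed the count filter in 1 comparison only. Of the 5 carriers of the family under other symbols, Ucp1 and the outer-membrane protein Mtch2 were called higher, the latter from 2 days on (0.41 to 0.47, edgeR adjusted p = 0.00317 and 0.00104). Ucp2, Ucp3 and Mtch1 were not called against room temperature, with log2 fold changes between −0.29 and 0.46.

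Mitochondrial transporters outside the family were set beside it. Of 16 listed, 14 could be tested at 6 hours, with 4 higher and 5 lower (21.6% and 21% of all genes), and 15 at 5 days, with 6 higher and 1 lower (20.2% and 18.6%). Mpc2, a subunit of the pyruvate carrier, was higher by 0.57 at 6 hours and 1.62 at 5 days (edgeR adjusted p = 0.00231 and 7.19e-07), and its partner Mpc1 by 1.08 at 5 days (adjusted p = 9.94e-05). Letm1, a cation exchange protein of the inner membrane, rose by 1.90 (standard error 0.13, adjusted p = 7.8e-09) at 5 days and the calcium uniporter Mcu by 0.82 (standard error 0.12, adjusted p = 4.23e-05) at 4 days in edgeR's test. Abcb10, an inner-membrane ABC transporter of the heme pathway, was lower at all durations (−0.95 at 6 hours and −0.61 at 5 days, edgeR adjusted p = 1.02e-05 and 0.0044).

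Direct contrasts between durations asked which carriers kept changing in the cold. Between 6 hours and 1 day, 10 of 36 members were called (27.8%, against 17.0% of all 10181 genes), 9 higher at 1 day (9.2% of all genes) and 1 lower (7.75%), and 9 of 36 did not overlap between the groups (background 12.1%). Slc25a48 had the largest rise of these, 2.04 (standard error 0.26, adjusted p = 3.8e-05) on the log2 scale, followed by Slc25a45 with 1.11 (standard error 0.27, adjusted p = 0.00916) and Slc25a34 with 1.00 (standard error 0.14, adjusted p = 6.78e-05) in edgeR's test. Slc25a23 fell by −1.38 (standard error 0.20, adjusted p = 0.000116). Slc25a28 rose by 0.87, Slc25a39 by 0.46, Slc25a46 by 0.39 and Slc25a11 by 0.39 (edgeR adjusted p = 0.00243, 0.00183, 0.0143 and 0.0116). Calls for Slc25a15 (0.63) and Slc25a32 (0.53) were lost without 6 hours replicate 1 or 5 or 1 day replicate 3, and without 6 hours replicate 2 or 5 or 1 day replicate 2 or 3 (edgeR adjusted p 0.0588 to 0.0823). The call for Slc25a32 was also lost with a replicate block, in 1 fit of all mice and without the libraries of high muscle signal (0.0542, 0.0502 and 0.0551).

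Between 6 hours and 5 days, 17 of 36 members were called (47.2%, against 35.8% of all 10294 genes), 12 higher at 5 days (19.0% of all genes) and 5 lower (16.9%), and 11 of 36 did not overlap (background 23.4%). The citrate carrier Slc25a1 led the rises with 1.83 (standard error 0.18, adjusted p = 1.07e-07), followed by Slc25a48 with 1.74 (standard error 0.27, adjusted p = 4.27e-05), Slc25a32 with 1.28 (standard error 0.17, adjusted p = 5.44e-06) and Slc25a28 with 1.17 (standard error 0.13, adjusted p = 5.53e-07) in edgeR's test. Slc25a10 rose by 0.90, Slc25a34 by 0.84, Slc25a39 by 0.66, Slc25a44 by 0.62 and Slc25a15 by 0.59. The falls were in Slc25a24 (−1.05 (standard error 0.25, adjusted p = 0.00281)), Slc25a25 (−0.98 (standard error 0.26, adjusted p = 0.00624)), Slc25a30 (−0.89 (standard error 0.18, adjusted p = 0.000657)), Slc25a23 (−0.56) and Slc25a22 (−0.47), so all 3 ATP-Mg/phosphate carriers tested were lower at 5 days than at 6 hours. Slc25a17 did not pass (−0.05 (standard error 0.09, adjusted p = 0.689), edgeR). Calls for Slc25a3 (0.28) and Slc25a20 (0.32) were lost in 8 and 3 of 10 fits that left out 1 mouse. For Slc25a3 these left out 6 hours replicate 1, 3, 4 or 5 or 5 days replicate 1, 3, 4 or 5 (edgeR adjusted p 0.0526 to 0.104), and for Slc25a20 6 hours replicate 1 or 5 days replicate 3 or 4 (0.0563 to 0.0673). The call for Slc25a3 was also lost when scaled by total counts alone (0.099) and both in 1 fit of all 35 mice (0.0523 and 0.0571).

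**Figure D5:**
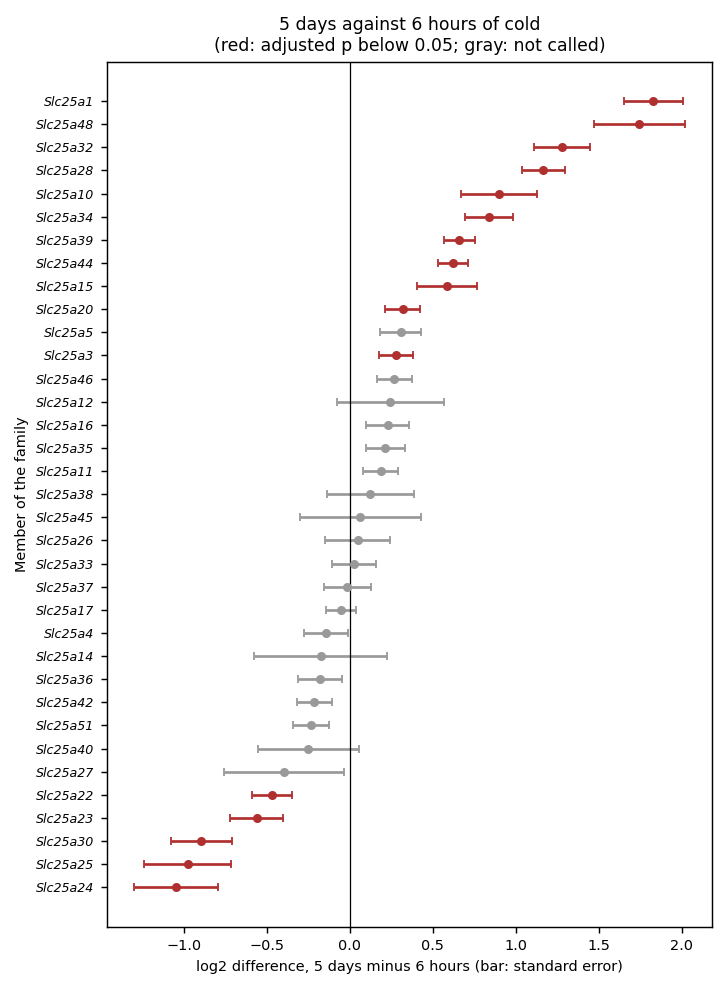
Log2 difference between 5 days and 6 hours of cold for 35 of the 36 carriers tested (points, positive where higher at 5 days), with standard errors as bars and red where the edgeR adjusted p was below 0.05. Slc25a1 and Slc25a48 lie farthest to the right, Slc25a24 and Slc25a25 farthest to the left, and Slc25a17 is near 0.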

How the data were processed

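RNA of 35 iBAT samples was sequenced from QuantSeq 3′ FWD libraries. Per the labels, the authors aligned reads to GRCm38 with STAR 2.6.1d and counted them per gene with HTSeq 0.11.2 (annotation GRCm38.98), and they deposited 1 table of raw counts without normalization. The strand setting of the counting is not given in the sources used here. Each of the 35 columns matched 1 mouse by duration and replicate number, and no 2 libraries of a group were identical.

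Gene symbols, positions and overlaps came from GENCODE M21 (GRCm38). Counts were tested with edgeR 4.0.16 in R 4.3.3 (TMM, filterByExpr, quasi-likelihood test, 1 fit per comparison of 5 against 5 mice, Benjamini-Hochberg over all genes tested, threshold 0.05), after the code was tested on simulated data. The standard error is the log2 fold change divided by the square root of F. DESeq2 1.42.0, other scalings and filters, a replicate block, 1 fit of all mice and leaving out each mouse were alternatives. Leaving out libraries with summed muscle markers above 600 CPM was chosen after seeing the data. Each comparison lost only those of its own groups, so every comparison with room temperature was without room temperature replicates 1 and 3. These fits hold fewer mice, which alone can cost a call. Members, gene lists and comparisons were chosen with earlier results of these data known. Values for every mouse are given for the 12 members called with an absolute log2 fold change of at least 1 and a mean of at least 20 counts in any comparison, and for Slc25a1, Slc25a3, Slc25a4, Slc25a5 and Slc25a20. Single-cell data of the study were not analysed here, and 1 member enters the counts but is not reported or plotted on its own. Intervals of counting error are not given. Tests and means rest on 5 mice per group, but each value of a single mouse rests on 1 library, so those from few reads are uncertain.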

Additional observations from a re-analysis of the deposited data

Results flagged for a closer look

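Of 112 groups of 5 mice checked (16 carriers in 7 groups), 4 held a mouse far from the others by Dixon's criterion, which chance alone exceeds in about 1 in 20 groups. These were Slc25a34 in 1 day replicate 1 (96.98 CPM) and 5 days replicate 2 (94.6 CPM), Slc25a45 in 3 days replicate 1 (5.601 CPM) and Slc25a25 in 3 days replicate 2 (1.229 CPM). The latter 2 rest on few reads.

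Several carriers responded differently at different durations, by the direct contrast of cold groups in edgeR's quasi-likelihood test. From 6 hours to 1 day the log2 differences were 2.04 for Slc25a48, 1.11 for Slc25a45, 1.00 for Slc25a34, 0.87 for Slc25a28, 0.63 for Slc25a15 and 0.53 for Slc25a32. They were 0.46 for Slc25a39, 0.39 for Slc25a46, 0.39 for Slc25a11 and −1.38 for Slc25a23. From 6 hours to 5 days the rises were 1.83 for Slc25a1, 1.74 for Slc25a48, 1.28 for Slc25a32, 1.17 for Slc25a28, 0.90 for Slc25a10 and 0.84 for Slc25a34. Smaller rises were 0.66 for Slc25a39, 0.62 for Slc25a44, 0.59 for Slc25a15, 0.32 for Slc25a20 and 0.28 for Slc25a3. The falls were −1.05 for Slc25a24, −0.98 for Slc25a25, −0.89 for Slc25a30, −0.56 for Slc25a23 and −0.47 for Slc25a22. For Slc25a48 the 6-hour level was below and the 1-day level above that of the room temperature mice.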

How the results depend on the processing

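Of the 138 member values called in the 8 comparisons, 96 stayed past the threshold in every alternative and every fit without 1 mouse, 26 were lost in at least 1 fit without a mouse, and no direction reversed. Of 150 member values tested and not called, 38 passed in at least 1 of these fits. Counts of members called lower moved most. With scaling by total counts alone 7 members were higher and 13 lower at 6 hours, and 7, 7 and 8 were lower at 1, 2 and 5 days and 2 at 1 day against 6 hours. Lowering the filter to 10 counts in all gave 4, 1 and 2 lower at 6 hours, 1 day and 2 days, DESeq2's Wald test 5 and 1 at 6 hours and 1 day, and 1 fit of all 35 mice 4, 1 and 3 at 6 hours, 1 day and 4 days. Without the libraries of high muscle signal in the groups compared 4, 1 and 2 were lower at 6 hours, 1 day and 2 days, and a minimum count of 30 left 3 lower at 5 days against 6 hours. Leaving out each mouse in turn gave 4 to 8 lower at 6 hours, 1 to 4 at 1 day, 2 to 4 at 2 days and 1 to 2 at 1 day against 6 hours.

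Replicate numbers are shared between groups but do not pair the mice. Over 40 pairings of groups by number the deviations correlated at −0.239 to 0.144, and 3 exceeded 0.1. With a replicate block 2 members were lower at 2 days and 2 at 1 day against 6 hours, and the other counts stayed within 1.5 times. Depth limits the 10 carriers without a test, which held at most 15 counts.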
